A study of Arabidopsis thaliana with 4 samples.

Results

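Wild-type Arabidopsis thaliana shoot apices exposed to a topoisomerase inhibitor were set against shoot apices of the mutant as2-1 without inhibitor. The comparison takes 2 of the 4 arrays of the series, chosen by their titles, and asks what inhibition of DNA topoisomerase I (TOP1) does that loss of Asymmetric Leaves2 (AS2) does not, and the reverse. The first array was Col-0, the wild-type accession, on 10-hydroxycamptothecin (10H-CPT), called treated wild type below. The second was as2-1, a mutant allele of AS2 in the Col-0 accession, on DMSO, the solvent of 10H-CPT, called mock mutant. Mock wild type (Col-0 DMSO) and treated mutant (as2-1 10H-CPT) served to place the differences. Plants grew for 14 days on MS agar that held 10H-CPT or not, in long days of 16 hours light and 8 hours dark, and their shoot apices were taken. The labels give no dose and no number of plants per array, and the mutant is represented by 1 allele. Each group was measured on 1 array, so no difference below has a replicate check or a test, and every value describes these arrays.

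TOP1 relaxes the supercoils that build up around moving polymerases, by nicking one DNA strand and sealing it again. Camptothecins, of which 10H-CPT is a derivative, trap the enzyme on the nicked DNA. AS2 is a plant-specific nuclear protein that acts with the MYB protein AS1 in leaf primordia, where they keep class 1 KNOX homeobox genes and genes of the lower leaf side in check.

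Each probe set has 1 value per array, a MAS5 signal intensity. Signals under the 40th percentile of all values of the 4 arrays, 46.6, were set to that floor, and a probe set counted as measured when at least 1 of the 2 signals exceeded it. That held for 14148 of 22746 probe sets (62.2%), of which 13158 exceeded the floor on both arrays. The brighter signal of the dimmest measured probe set was 46.7, and that of the brightest one left out was 46.6. A RefSeq gene was known for 7639 of the measured probe sets, and 1095 of these carry a symbol other than the locus code. AS2, AS1 and both TOP1 genes had no probe set paired with them here, so the genotype label could not be checked on its gene. In whole tissue, fewer cells of a type and less RNA per cell cannot be told apart.

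In treated wild type, 255 probe sets had at least 2-fold the signal of the mock mutant, 1.80% of those measured, and 325 were at least 2-fold lower (2.30%), together 4.10%. The median ratio was 2.38-fold in the higher set and 2.44-fold in the lower set. At 3-fold there remained 44 higher and 85 lower probe sets, at 4-fold 15 and 25, and at 8-fold 1 and 4. Higher ones made up 44.0% of those past 2-fold and 34.1% of those past 3-fold. The log2 ratio over all measured probe sets had a median of -0.017, quartiles of -0.27 and 0.23, and an SD of 0.46. In 27 of the higher and 64 of the lower probe sets the dimmer signal was at the floor, so their ratios are lower bounds.

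**Figure D1:**
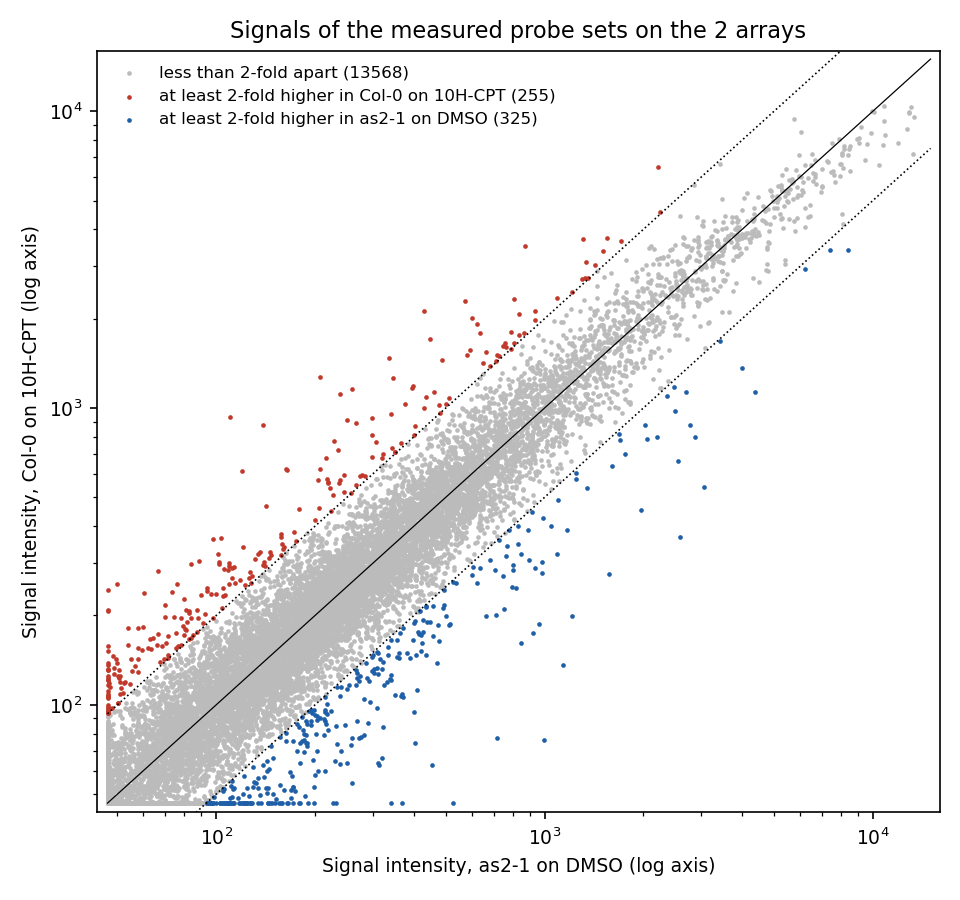
Signal intensity of each of the 14148 measured probe sets in the mock mutant (horizontal, log axis) and in treated wild type (vertical, log axis), with signals under 46.6 drawn at that floor. The solid line marks equal signals and the dotted lines 2-fold, beyond which lie 255 probe sets higher (red) and 325 lower (blue) in treated wild type.

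The remaining pair, treated mutant over mock wild type, shares no array with the first and helps to place each ratio. A difference that goes with the treatment keeps its direction in that second pair, and one that goes with the genotype turns it. Of all 14269 probe sets measured in the second pair, 4.27% were at least 2-fold higher and 3.53% at least 2-fold lower. Of the 255 probe sets higher in the first pair, 85 (33.3%) were higher in the second pair too and 32 (12.5%) were lower. Of the 325 lower ones, 105 (32.3%) were lower in the second pair too and 30 (9.23%) were higher. Among the probe sets past 2-fold in both pairs, 190 thus kept their direction and 62 turned it. Either class can also hold genes whose inhibitor response differs between the genotypes, and these counts do not separate them. As shares of the second pair's own lists, the 85 and the 30 were 14.0% and 4.93% of 609 higher probe sets, and the 105 and the 32 were 20.9% and 6.36% of 503 lower ones. The rest, 138 higher and 190 lower probe sets, lay under 2-fold in the second pair.

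**Figure D2:**
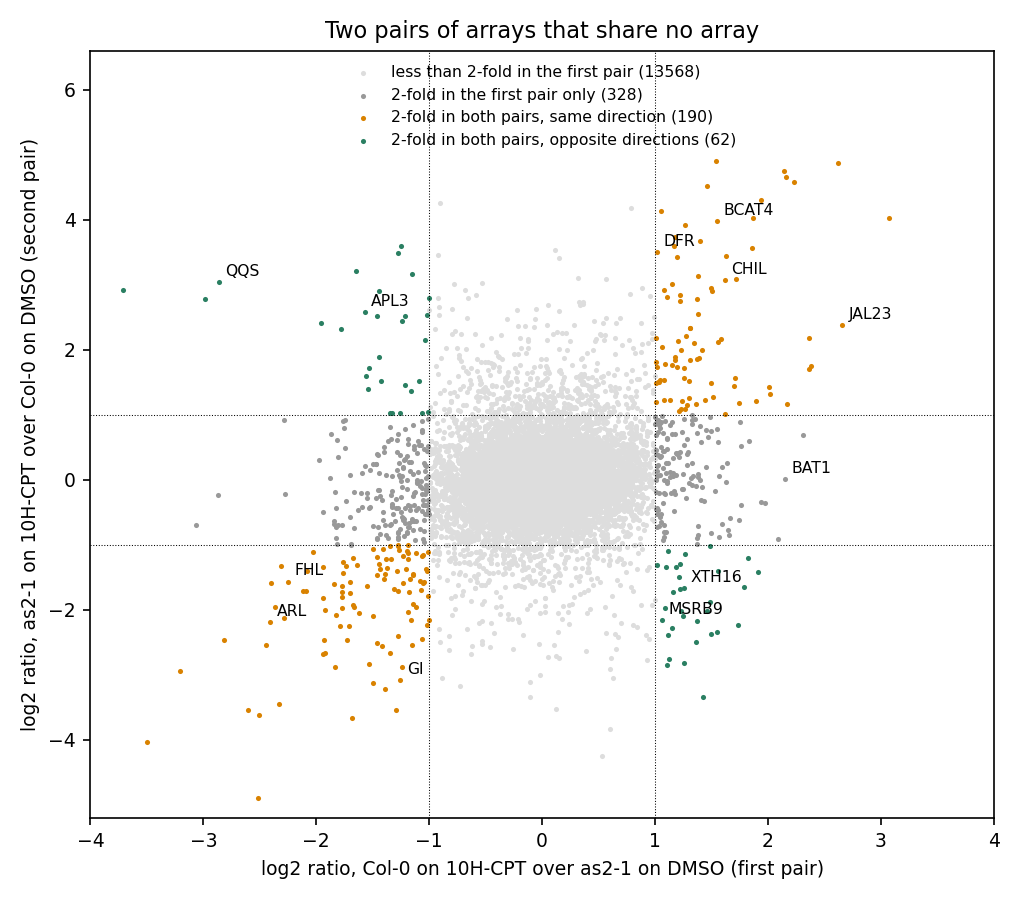
Each point is a measured probe set, with its log2 ratio of treated wild type over mock mutant (horizontal) and of treated mutant over mock wild type (vertical), and dotted lines at 2-fold. Orange points (190) keep their direction in both pairs, as JAL23, BCAT4, ARL and GI do, and green points (62) turn it, as QQS, APL3, XTH16 and MSRB9 do.

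Mock wild type gives another reading of the same 580 probe sets, with the limit that both ratios then share that array and its error. In 203 (35.0%) the distance lay on the inhibitor side: treated wild type was at least 2-fold from mock wild type, while the mock mutant was within 1.5-fold of it. These were 77 higher and 126 lower probe sets. In 80 (13.8%) it lay on the mutant side, with 42 probe sets lower and 38 higher in the mock mutant than in mock wild type. In 55 (9.48%) both arrays were at least 1.5-fold from mock wild type in opposite directions, and the remaining 242 (41.7%) met none of these rules.

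Among annotated genes, the 12 highest ratios ran from 3.27-fold to 8.43-fold and the 12 lowest from 4.09-fold to 11.3-fold. Of the 12 highest, 6 were at least 2-fold higher in the second pair and 1 was lower. Of the 12 lowest, 9 were at least 2-fold lower in the second pair and 1 was higher. Each of these genes was read by 1 probe set. Symbols exist for 4 of the highest and 5 of the lowest, and the others are given by locus alone.

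JAL23, PDF1.2 and THI2.1, which have roles in defence, were among the 12 highest genes, while the defence-related OSM34, the chitinase gene CHI (AT2G43570) and WRKY53, the first and second of them named after their values were seen, were lower in treated wild type, by at least 2.76-fold, 2.08-fold and 2.23-fold. JAL23, which encodes a jacalin-related lectin, had signals of 877.9 in treated wild type, 138.9 in the mock mutant, 327.4 in mock wild type and 1705.2 in the treated mutant. Both treated arrays exceeded both mock arrays, by 6.32-fold in the first pair and 5.21-fold in the second, and the mock mutant was the lowest of the 4. PDF1.2, a plant defensin gene used as a marker of jasmonate and ethylene signalling, was at 209.2 in treated wild type, 41.0 in the mock mutant, 49.7 in mock wild type and 111.0 in the treated mutant. Its ratio was at least 4.49-fold in the first pair and 2.24-fold in the second, and again both treated arrays were the higher ones. Its relative PDF1.2b, read by a probe set that may match several genes, was at least 2.93-fold higher in the first pair. THI2.1 encodes a thionin, an antimicrobial peptide. It was at 158.0 in treated wild type and below the floor at 29.3 in the mock mutant, at least 3.39-fold apart, with 127.8 in mock wild type and 183.9 in the treated mutant. Here the mock mutant stood apart from the other 3 arrays.

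The gene with the highest ratio was the locus AT1G47400, with signals of 929.6 in treated wild type and 110.3 in the mock mutant, 8.43-fold apart. Mock wild type was below the floor at 44.6 and the treated mutant reached 763.0, so the mock mutant lay between mock wild type and both treated arrays. AT5G05250 had the same order, with 1115.6 in treated wild type, 237.9 in the mock mutant, 30.5 in mock wild type and 1110.1 in the treated mutant. AT1G54020 differed, since its signal in the mock mutant (119.4) was under that of mock wild type (241.7), while treated wild type and treated mutant reached 615.3 and 1102.1.

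Of the glucosinolate and flavonoid genes past 2-fold, BCAT4 and AT2G31790 were also at least 2-fold above mock wild type in the mock mutant. BCAT4, the aminotransferase that starts methionine chain elongation for glucosinolates, had signals of 6471.5 in treated wild type, 2213.4 in the mock mutant, 400.7 in mock wild type and 6320.9 in the treated mutant. Treated wild type was 2.92-fold above the mock mutant, and against mock wild type the ratios were 16.1-fold for treatment and 5.52-fold for the mutation. The 2 treated arrays lay close together for BCAT4. AT2G31790, of the same list, was at 1541.5, 662.6, 235.1 and 1686.5 in the same order of arrays, 2.33-fold apart in the first pair. CHIL encodes a chalcone isomerase-like protein of flavonoid synthesis, and DFR the dihydroflavonol reductase of the anthocyanin branch. CHIL was at 183.4 in treated wild type and 59.6 in the mock mutant, 3.08-fold apart, with 37.5 in mock wild type and 390.8 in the treated mutant. DFR was at 176.5 and 87.3 in the first pair, 2.02-fold apart (log2 0.72 with log2(value + 50) in place of the floor), and at 61.6 in mock wild type and 697.6 in the treated mutant. For both genes the treated mutant had the highest signal, and the second pair differed by at least 8.38-fold and by 11.3-fold.

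In some genes treated wild type stood above the other 3 arrays. BAT1, which encodes an acyltransferase acting on brassinosteroids, was at 207.2 in treated wild type, below the floor at 40.3 in the mock mutant, at 79.1 in mock wild type and at 79.9 in the treated mutant. The first pair differed by at least 4.44-fold and the second by 1.01-fold. AT5G12110 was 3.83-fold higher in treated wild type (623.1) than in the mock mutant (162.6), with 235.3 and 185.9 in mock wild type and treated mutant. Among genes with symbols outside the naming rule, named after their values were seen, Cpn60beta2, a plastid chaperonin subunit gene, was at 1926.9 in treated wild type and 622.5 in the mock mutant. Its signals in mock wild type and treated mutant, 885.7 and 864.4, differed by 1.02-fold. Hsp70-2, of the HSP70 chaperone family, was 2.56-fold higher, at 456.6 against 178.2, with 137.8 in mock wild type and 263.1 in the treated mutant.

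The genes lowest in treated wild type were led by AT5G20790. Its signals were 525.6 in the mock mutant and 761.1 in mock wild type, and it was under the floor on both treated arrays (43.9 and 7.9), at least 11.3-fold lower in the first pair and at least 16.3-fold in the second. AT2G17850 was 5.45-fold and 5.85-fold lower in the first and second pair, and AT1G33055 was 5.02-fold and at least 11.0-fold lower. These loci separated the arrays by treatment, with both treated signals under both mock signals.

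ARL, CYP78A9 and FHL were among the 12 lowest genes, and GI was the one clock gene measured of 18 listed. ARL, an ARGOS-like gene that promotes cell expansion in growing organs, was at 174.3 in treated wild type and 924.5 in the mock mutant, 5.30-fold lower, with 507.0 in mock wild type and 111.5 in the treated mutant. The mock mutant had the highest ARL signal of the 4 and the treated mutant the lowest. CYP78A9, a cytochrome P450 gene known for its effect on fruit and seed size, was at 190.7 in the mock mutant, 100.4 in mock wild type and under the floor on both treated arrays (38.7 and 41.7), at least 4.09-fold lower in the first pair. FHL, which with its relative FHY1 brings phytochrome A into the nucleus, was 4.75-fold lower, at 54.6 and 74.1 on the treated arrays of wild type and mutant and 219.1 and 259.7 on the mock arrays. GI, a clock gene that also acts in flowering time, was at 173.4 in treated wild type and 413.6 in the mock mutant, 2.39-fold lower. In the second pair GI was 8.45-fold lower, at 64.9 against 548.0, so that all treated signals were under all mock signals.

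The further genes with a symbol given here, ATSPS4F, OSM34 and MGL, were named after their values were seen. ATSPS4F, a sucrose phosphate synthase gene, was 2.83-fold lower, at 59.4 in treated wild type and 168.1 in the mock mutant, with 127.4 in mock wild type and 61.0 in the treated mutant. OSM34, an osmotin-like defence gene, was under the floor on both treated arrays (40.4 and 25.9) and at 128.7 and 266.1 in mock mutant and mock wild type, at least 2.76-fold lower. MGL, which encodes methionine gamma-lyase, was 2.68-fold lower, at 170.9 against 457.4, with 402.4 in mock wild type and 322.9 in the treated mutant. In MGL treated wild type stood below the other 3 arrays. Over all 1093 measured genes with a symbol, 17 (1.56%) were at least 2-fold higher and 30 (2.74%) at least 2-fold lower.

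BETA-VPE and AT2G43590 had their highest signals in the mock mutant. BETA-VPE, a vacuolar processing enzyme gene best known from seeds, was at 63.6 in treated wild type and 310.9 in the mock mutant, 4.89-fold lower, with 145.6 in mock wild type and 276.8 in the treated mutant. The mutant arrays were close to each other, and both exceeded both wild-type arrays. AT2G43590 was at 66.0 and 319.4 in the first pair, 4.84-fold lower, and at 178.8 in mock wild type and 153.9 in the treated mutant.

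A smaller set of genes turned direction between the pairs. QQS, an orphan gene that lowers leaf starch, was at 62.5 in treated wild type, 454.3 in the mock mutant, 34.7 in mock wild type and 385.1 in the treated mutant, 7.26-fold lower in the first pair and at least 8.26-fold higher in the second. Both mutant arrays exceeded both wild-type arrays. APL3, a large subunit gene of the starch synthesis enzyme ADP-glucose pyrophosphorylase, was at 57.4 and 55.6 in treated and mock wild type and at 170.6 and 332.9 in mock and treated mutant. GH9B8, of a family of plant endoglucanases and named after its values were seen, was at 186.2 and 205.3 in wild type and 474.0 and 418.7 in the mutant. For both genes the genotypes did not overlap. WRKY53, a transcription factor gene of leaf senescence, was under the floor at 35.7 in treated wild type, at 77.1 in mock wild type, at 104.2 in the mock mutant and at 198.8 in the treated mutant. Its genotypes differed by 1.35-fold on DMSO. With 10H-CPT the WRKY53 signal was at least 1.65-fold lower than on DMSO in wild type and 1.91-fold higher in the mutant. AT4G35720 was 3.13-fold lower in the first pair and at least 9.30-fold higher in the second, and AT2G47780 was 2.43-fold lower and at least 11.2-fold higher.

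In the other direction, XTH16, which encodes a xyloglucan-modifying enzyme of the cell wall, was at 570.4 and 504.9 in treated and mock wild type and at 238.8 and 159.3 in mock and treated mutant. It was 2.39-fold higher in the first pair and 3.17-fold lower in the second. MSRB9, a methionine sulfoxide reductase gene named after its values were seen, was at 294.1 in treated wild type and 140.9 in the mock mutant, 2.09-fold higher, with 627.4 in mock wild type and 140.0 in the treated mutant. Both MSRB9 signals of the mutant were alike and lay under both of the wild type. AT3G49790 and AT5G44020 were 2.95-fold and 2.57-fold higher in the first pair and at least 2.65-fold and 5.61-fold lower in the second. AT5G14120 and AT1G23390 were 2.37-fold and 2.35-fold higher and then 4.28-fold and 4.06-fold lower.

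Calls of dim genes depended on how low signals were handled. With log2(value + 50) in place of the floor, WRKY53, AT2G47780, MSRB9, ATSPS4F, OSM34, DFR, XTH19, COR15A, ndhH, CHI and Hop3 lay under 2-fold. With the floor raised to the 60th percentile of all values, these genes except MSRB9 again lay under 2-fold. So did PDF1.2, PDF1.2b, THI2.1, BAT1, CHIL, APL3, AT4G35720, AT3G49790, CYP78A9, FHL and LTI30. The same held for AT1G23140, BGLU28 and BGLU47, which are given further below.

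**Figure D3:**
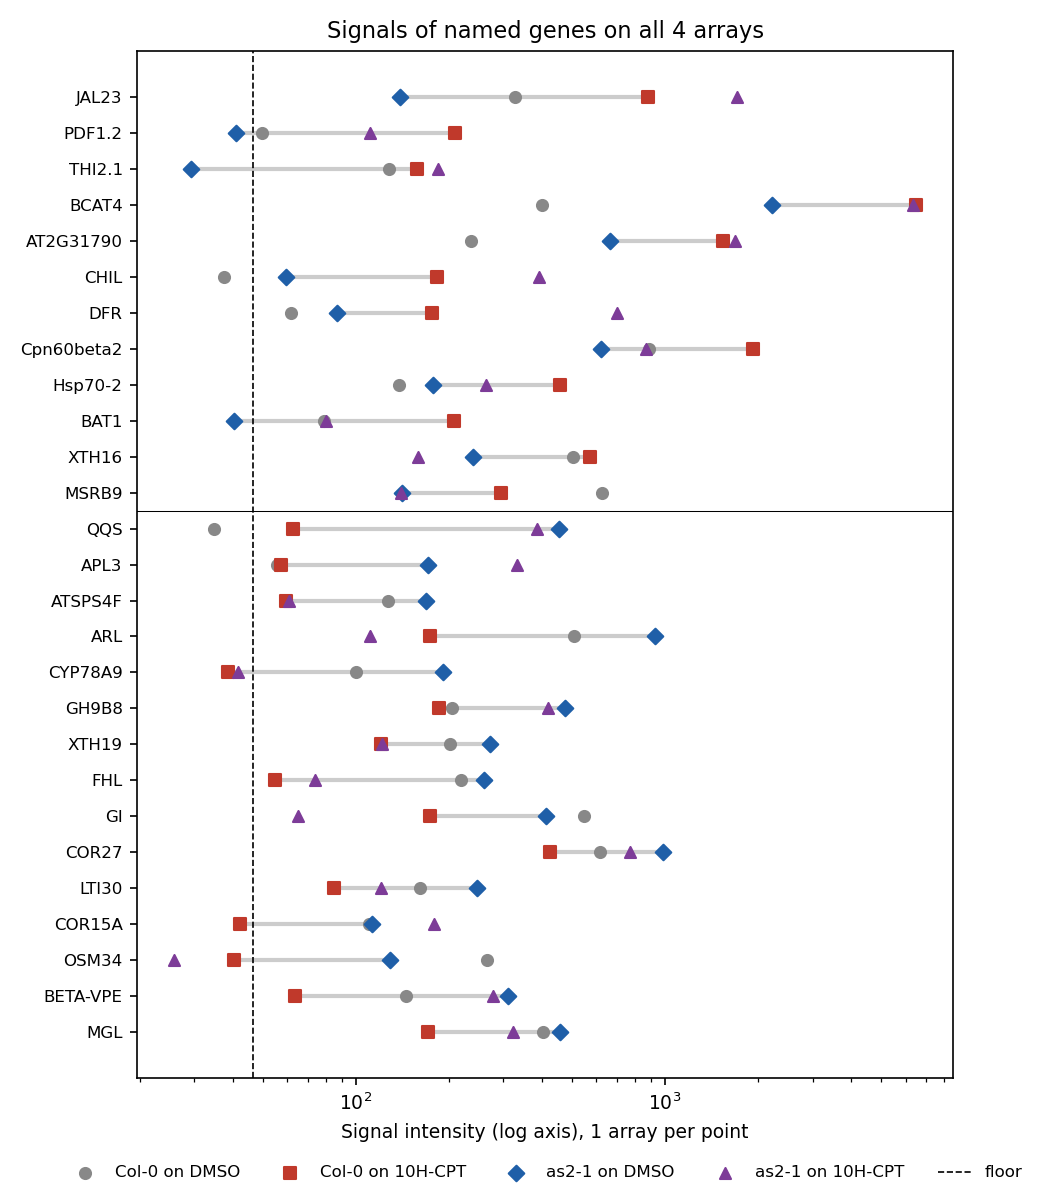
Signal intensity (horizontal, log axis) of named genes on the 4 arrays, 1 array per point, with a grey bar between treated wild type (red square) and mock mutant (blue diamond) and a dashed line at the floor of 46.6. Genes above the horizontal line were higher in treated wild type than in the mock mutant, as BCAT4 at 6471.5 against 2213.4, and those under it were lower, as QQS at 62.5 against 454.3.

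The 28 pathway lists hold 446 genes, of which 62 had a probe set with a known gene and 51 were measured. Of these 51, 5 were at least 2-fold higher in treated wild type and 7 at least 2-fold lower, beside 1.39% higher and 1.86% lower among all 7601 measured genes. The lists were drawn up with earlier results of these data known, so these counts are no independent evidence.

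Both measured genes of methionine-derived glucosinolates, of 21 listed, were past 2-fold higher, with a median log2 ratio of 1.38. Of the 5 measured flavonoid and anthocyanin genes, 4 were above 0 and UGT78D1, a flavonol glycosyltransferase gene, was at -0.0078; the median was 0.54 and DFR alone passed 2-fold. The 4 measured starch genes were below 0, with a median of -1.12: QQS at -2.86, APL3 at -1.57, DPE1 for a starch-degrading plastid enzyme at -0.66 and SBE2.2 for a starch branching enzyme at -0.20. The 4 measured cold and abscisic acid genes were below 0 too, with a median of -0.93. Of these, LTI30, a dehydrin gene, was at 85.1 in treated wild type and 246.9 in the mock mutant, 2.90-fold lower, with 161.8 in mock wild type and 120.3 in the treated mutant. COR15A, which encodes a chloroplast cryoprotectant, was under the floor at 42.3 in treated wild type and at 112.6 in the mock mutant, at least 2.41-fold lower, with 110.6 in mock wild type and 179.5 in the treated mutant. Treated wild type was the lowest array for both genes. COR47 and COR15B stood at log2 ratios of -0.58 and -0.12. Of the 5 cell wall loosening genes, XTH16 was past 2-fold higher and XTH19, another xyloglucan-modifying enzyme gene, was 2.26-fold lower.

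Lists tied more directly to TOP1 and AS2 had few measured genes, and none of those passed 2-fold. Of the topoisomerase genes, TOPII and TOP3A stood at log2 ratios of 0.62 and 0.58 and the locus AT2G32000 at -0.46. The mitotic kinase genes AUR1 and AUR2 were at 0.73 and 0.80 and PRL, which encodes the replication helicase subunit MCM7, at 0.87. PRL had a signal of 373.2 in treated wild type, 204.2 in the mock mutant, 222.5 in mock wild type and 243.8 in the treated mutant. Treated wild type was the highest of the 4 arrays for AUR1, AUR2 and PRL. The DNA ligase gene ATLIG4 of the damage response list was at -0.17. Of the leaf polarity genes, YAB3 and YAB5 of the lower leaf side were at 0.42 and -0.60 and PHV of the upper side at 0.53. For YAB5 the mutant signals, 114.5 on DMSO and 137.5 on 10H-CPT, exceeded the wild-type ones, 63.8 and 75.7. YAB3 was at 180.2 on DMSO and 227.6 on 10H-CPT in the mutant, and at 253.9 and 240.3 in wild type. On 10H-CPT the YAB3 signals of the genotypes thus differed by only 1.06-fold.

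**Figure D4:**
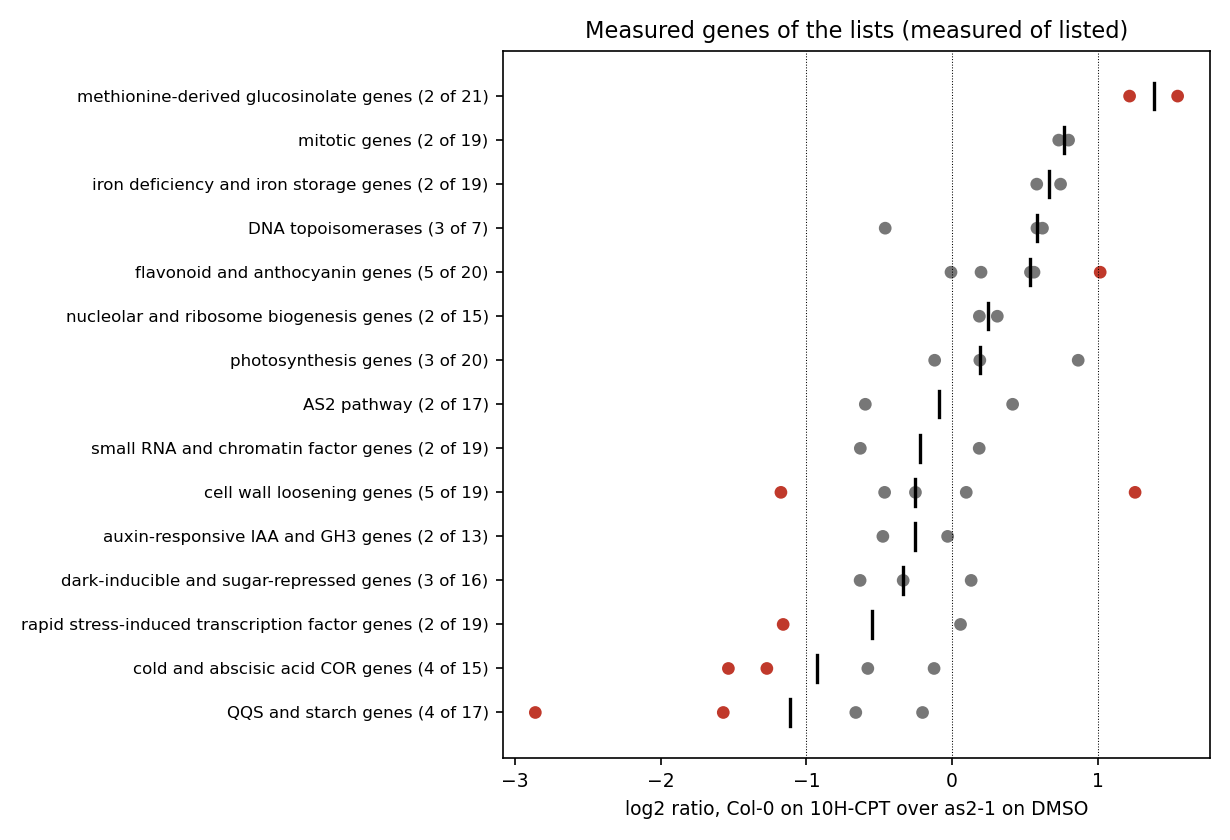
Log2 ratio of treated wild type over mock mutant (horizontal) for each measured gene of the pathway lists with at least 2 measured genes, with the list median as a black bar, the number measured of those listed in brackets and red points past 2-fold. The medians run from -1.12 for the starch genes to 1.38 for the methionine-derived glucosinolate genes, and each rests on 2 to 5 genes.

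Chloroplast genome transcripts gave the fullest list, with 67 measured genes of 129. Of these, 42 were above 0 and 25 below, with a median log2 ratio of 0.16. Past 2-fold were 1 higher and 1 lower, close to the 1.39% and 1.86% of all measured genes. The higher one, ndhH of the chloroplast NADH dehydrogenase-like complex, was at least 2.15-fold higher, but at a log2 ratio of 0.71 with log2(value + 50), and atpH of the chloroplast ATP synthase was 2.11-fold lower. Signals of atpH were 1180.0 in treated wild type, 2485.5 in the mock mutant, 2149.1 in mock wild type and 665.6 in the treated mutant, so that both treated arrays were under both mock arrays.

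Genes near AS2 on its chromosome were counted apart, since a mutant line can differ from wild type around its mutation. Of 226 measured genes within 500 genes of AS2 on either side, 4 were at least 2-fold higher and 7 at least 2-fold lower in treated wild type, together 4.87%. Within 100 genes it was 1 of 30 (3.33%), within 250 genes 2.88% of 104 and within 1000 genes 3.28% of 427, and farther than 1000 genes away or on other chromosomes it was 3.25% of 7174. Over the 5 nuclear chromosomes the share ran from 2.98% to 3.42%.

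Tissue markers were thinly covered, with a probe set for 0 of 7 genes of shoot meristem and leaf primordia, 2 of 6 of root, 3 of 3 of the stomatal lineage and none of vascular tissue, senescent leaf or seed storage. The stomatal genes SPCH, MUTE and FMA and the root hair gene EXPA7 were below the floor on all 4 arrays. So was CLV3, the stem cell peptide gene of the shoot meristem, with signals of 1.1 to 15.0. As no listed marker of shoot meristem and leaf primordia had a probe set, these markers could not check the labelled tissue. PYK10, a beta-glucosidase gene abundant in roots and seedlings, was at 4395.7 in treated wild type, 3828.8 in the mock mutant, 3485.4 in mock wild type and 5600.7 in the treated mutant. The part of tissue makeup in the differences above was not tested.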

How the data were processed

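The deposited values are linear intensities that the authors computed with MAS5, per the submitters' processing notes; its version is not given in the sources used here, nor are a scaling target and detection calls. Biotinylated cRNA made from total RNA was hybridised, per the labels' protocols. Trimmed means of the 4 arrays (2% off each end) lay between 198.3 and 198.5.

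The arrays were rescaled to one trimmed mean by factors of 0.9994 to 1.0006, signals under the 40th percentile were set to it, and log2 was taken. A ratio with a signal at the floor is given as at least N-fold. With 1 array per group no test was run, and the number of arrays limits the precision. The software was matplotlib 3.10.9, scipy 1.17.1, pandas 2.3.3, numpy 2.4.6 and Python 3.11.15. The steps were tested on simulated data with changes planted in bright probe sets only, so calls near the floor were not covered. Other floors, thresholds, scalings and probe set filters were tried.

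GEO's platform annotation listed 14016 of the 22746 probe sets, 13513 with 1 gene and 503 with several; 8730 are unnamed here. Of these genes, those of 13436 probe sets matched the RefSeq table (assembly TAIR10.1), which was used for symbols and gene order. Where a gene had several probe sets, the brightest stood for it.

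The members and lists were chosen with earlier results of these data known. Named by rule were the 12 highest and 12 lowest plain _at probe sets of 1 gene, up to 5 more per class of the paired comparison, and list genes past 2-fold. Organelle lists were taken by chromosome of the RefSeq table, since its locus tags lack the planned prefixes.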

Additional observations from a re-analysis of the deposited data

How the results depend on the processing

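No paired analysis was possible because each group has 1 array. Values as deposited, quantile normalization, leaving out _s_at and _x_at probe sets and, for the lists, the mean over the probe sets of a gene kept every count within 1.5 times, and none of the 69 genes checked, those named by rule and those with a symbol past 2-fold, turned its direction. With the floor at the 60th percentile (137.3) 35 of the 69 lay under 2-fold, under log2(value + 50) 22, and without _s_at and _x_at probe sets 1 of 68, CHI at -0.98. DFR was at 0.36 with the higher floor, and WRKY53, COR15A, AT2G47780, OSM34 and ndhH were at 0 there, with both signals under that floor. The floor and the fold threshold moved the counts by their construction. In the order 20th percentile, 60th percentile, log2(value + 50), 1.5-fold and 3-fold, higher probe sets numbered 534, 133, 126, 1026 and 44, and lower ones 844, 149, 177, 1185 and 85. Those higher in both pairs numbered 141, 52, 52, 246 and 15, and those lower in both 185, 49, 66, 337 and 34. Those higher and then lower numbered 53, 24, 19, 137 and 2, and those lower and then higher 84, 16, 14, 163 and 6. The inhibitor side held 432, 92, 115, 875 and 44, the mutant side 282, 41, 38, 426 and 8, opposite sides 144, 19, 22, 55 and 28, and no clear side 520, 130, 128, 855 and 49. Genes past the threshold within 500 genes of AS2 numbered 29, 5, 6, 48 and 2. List genes numbered 7, 3, 5, 11 and 1 higher and 8, 2, 4, 12 and 1 lower. The higher share was 38.8% with the 20th percentile and 34.1% at 3-fold. With 1 array per group and no replicates, no ratio has an error, and ratios with a signal at the floor are bounds.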

Other observations

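Gene families by symbol, counted after values were seen, gave further descriptions. The BGLU, ATG and UGT families were picked from those with at least 8 measured genes each. Among all 7601 measured genes, 1.39% were at least 2-fold higher, 1.86% at least 2-fold lower and 3956 lay below 0. Of 10 measured BGLU genes, which encode beta-glucosidases, none was at least 2-fold higher in treated wild type than in the mock mutant, 3 were at least 2-fold lower and 8 lay below 0, with a median log2 ratio of -0.45. BGLU28 was at least 3.85-fold lower and BGLU33 was 2.48-fold lower, at 284.9 against 708.0, and both were lower in the second pair too. BGLU47 was at 107.1 in the mock mutant and under the floor on the other 3 arrays. Of 8 measured ATG genes, of autophagy, 7 lay below 0, with a median of -0.30. Of 22 UGT genes, of glycosyltransferases, 13 lay below 0, with a median of -0.27, a share near that of all genes. None of either family passed 2-fold. Most genes also lay below 0 in other groups, with 7 of 9 BZIP, 7 of 9 GH and 8 of 11 TRM genes. Their medians were -0.20, -0.046 and -0.081, beside -0.018 over all measured genes, so GH and TRM lay closer to all genes than ATG did. Symbol letters alone set the groups, so the GH genes need not form a single family. In SCPL, UBP and CYP more genes lay above 0, with 9 of 15, 7 of 12 and 6 of 11. Chaperone symbols were also picked by their first letters after the values were seen, so their count is no independent evidence. Of these 14 measured genes, 3 were at least 2-fold higher (Cpn60beta2, Hsp70-2 and Hop3). None was at least 2-fold lower, 3 lay below 0, and the median was 0.34. Of the heat shock list, with 10 genes, none was measured. The letters alone decided, so CPNIFS, at 0.12, was counted without a check of what it encodes. With log2(value + 50), Hop3 was under 2-fold, at 0.59.

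Of 3373 pairs of neighbouring measured genes at most 2 annotated genes apart, 5 had both genes past 2-fold, 3 in the same direction and 2 in opposite directions. At least 1 gene was past 2-fold in 213 pairs, beside 3.25% of all 7601 measured genes. AT3G27210 belongs to 2 of the 5 pairs. AT1G23130 and AT1G23140 were opposite, at log2 ratios of 1.65 and -2.31, and AT3G62920 and AT3G62930 were alike, at -1.24 and -1.28.

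Some of the most distant probe sets have no gene name here. One was 13.1-fold lower in treated wild type (75.9) than in the mock mutant (997.6) and 7.57-fold higher in the second pair. Another was 9.24-fold lower in the first pair and lower in the second. A further one was 6.14-fold higher, at 1273 against 207.2, and higher in the second pair too.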
